A study of Caenorhabditis elegans with 14 samples.

Results

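The oocyte and eggshell genes described here are rme-2, oma-1, oma-2, egg-1, egg-2, cbd-1, chs-1, puf-3 and puf-5 of Caenorhabditis elegans. They were chosen with earlier results of these data known. They were matched by symbol in the array's platform annotation, through every probe set that names a single gene. All 9 of 9 were measured, by 11 probe sets, among 17118 genes in all. In the hermaphrodite gonad, germ cells leave the mitotic zone, pass through meiosis and enlarge into oocytes, which take up yolk made by the intestine. Sperm are made first, in the last larval stage (L4), and oogenesis starts around the moult to the adult. Fertilisation, in which the egg receptors on the oocyte surface take part, is followed by the building of an eggshell with a chitin layer. RNA-binding proteins meanwhile hold maternal mRNAs silent and time the arrest and the maturation of the oocyte.

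RNA came from whole wild-type N2 worms, grown as synchronised cultures at 15 °C to the L4 stage, and was hybridised to 14 single-colour Affymetrix arrays. The 5 sham arrays held worms held at 26 °C over 2.5 h, with no field, in a copper transmission line cell. The 5 microwave arrays held worms kept for the same time at the same temperature in a silver-plated cell with a continuous field of 5 to 40 mW per kg; the frequency is given as 1.8 GHz in 1 label text and as 1 GHz in another. Each of these arrays holds a pool of RNA from 3 runs of exposure, so p-values measure the spread between pools. The cell differed along with the field, so field and cell cannot be told apart in the microwave to sham ratios. The 2 arrays labelled heat control and the 2 labelled heat shock carry the same strain and culture text, and how hot and how long their treatment was is not given in the sources used here.

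Linear ratios were deposited, and they are given below as log2 ratios. Each microwave array was set against its same-numbered sham array, because every sham value is 1. The 4 heat arrays were read as ratios to the mean of the heat controls, because the control columns sum to 2. No absolute level could be seen, so whether a transcript stood above background on a given array is unknown, and genes cannot be ranked by abundance. Over all probe sets the log2 ratios had a standard deviation of 0.387 in microwave pair 1 and of 0.101 to 0.164 in pairs 2 to 5. The log2 ratio of 3' minus 5' probe sets, averaged over 5 worm control transcripts, was -0.74 in pair 1 and between -0.13 and 0.055 on the other 8 arrays, the heat arrays included. This mean hides shifts in both directions. In heat shock 1 and 2, actin stood at 0.22 and 0.33, catalase at 0.29 and 0.12, and gly14 at -0.33 and -0.37. The chaperone gene hsp-70, known to be induced by heat, stood on the heat shock arrays at -3.34 ± 0.17 (SE, n = 2 per group) relative to the controls, opposite to that known response. Every heat direction below is that of the labels.

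The 9 genes separated the 2 heat control arrays from each other. Each of them was lower in heat control 1 than in heat control 2, by 1.79-fold (oma-1) to 3.94-fold (puf-5). The median difference of the members, control 2 minus control 1, was 1.295 on the log2 scale, against 0.020 over all 17118 genes. All 9 were 1.5-fold or more higher in control 2, where 3.05% of all genes were, and 7 were 2-fold or more higher, where 0.964% of all genes were. Both folds were chosen after the values were seen, and the members with earlier results of these data known. The smallest member difference, that of oma-1, lay above 98.7% of all genes, and the largest, that of puf-5, above 99.8%. Over all probe sets the controls had standard deviations of 0.193 and 0.204, and the heat shock arrays of 0.758 and 0.718. Quantile normalisation gave these arrays the same distribution and so stretched the controls. The members' median difference was then 2.99, ranging from 2.30 to 3.82, which is no check on its size. With 1 array on each side this difference has no test.

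The 2 arrays labelled heat shock, in contrast, gave nearly the same values for these genes. The difference between them ran from -0.18 (puf-5) to 0.072 (puf-3, with cbd-1 also at 0.072), with a median size of 0.057 against 0.14 over all genes. None of the 9 was 1.5-fold apart between the heat shock arrays, but only 2.76% of all genes were, so this count does not set them apart. Both heat shock arrays lay between the 2 controls for 7 members (7.05% of all genes), both lay above the controls for 1 member, puf-5 (45.9% of all genes), and for 0 members did both lie below the controls (27.1% of all genes). The remaining member is puf-3, in which heat shock 2 lay just above control 2. In whole worms, fewer oocytes and less RNA per oocyte cannot be told apart.

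**Figure D1:**
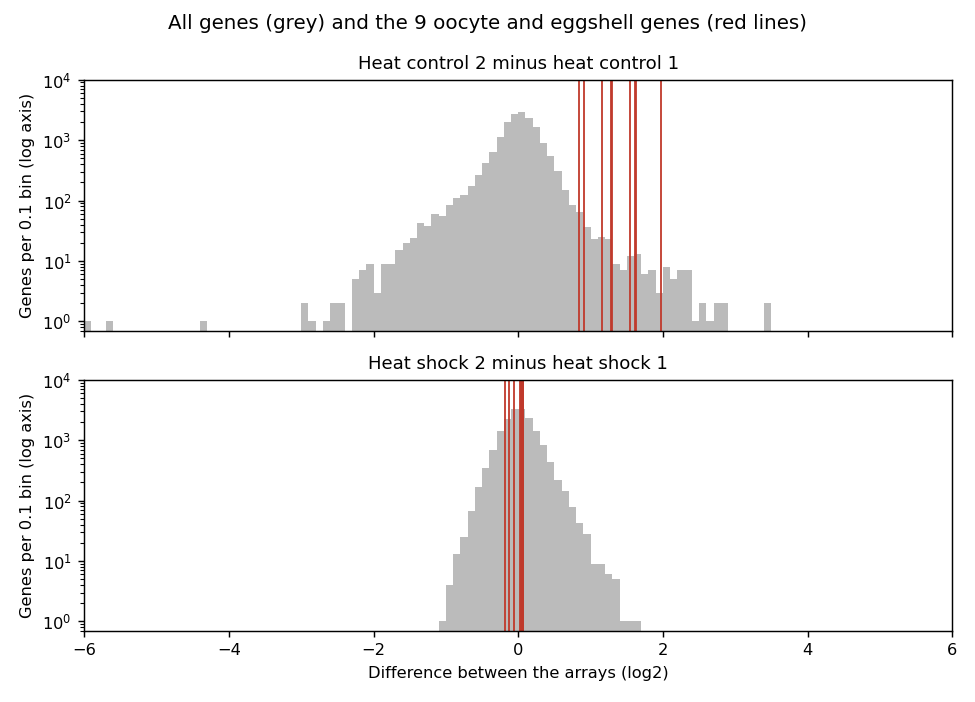
Number of genes (log axis, bins of 0.1) by the log2 difference between the 2 heat control arrays (top) and between the 2 heat shock arrays (bottom), with a red line for each of the 9 oocyte and eggshell genes. The red lines lie between 0.84 and 1.98 in the upper panel and between -0.18 and 0.072 in the lower.

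The receptor gene rme-2 (T11F8.3) encodes the oocyte receptor of the low density lipoprotein family that takes up yolk. Its log2 ratio was -0.78 in heat control 1, 0.50 in heat control 2, -0.76 in heat shock 1 and -0.71 in heat shock 2. Both heat shock arrays thus stood beside heat control 1 and far below heat control 2. In every other member the heat shock mean lay at least 0.39 above control 1, where that of rme-2 lay 0.045 above it. The log2 fold change of heat shock against both controls was -0.60 ± 0.42 (SE, n = 2 per group), with a 95% interval from -1.66 to 0.47 (limma adjusted p = 0.311). In the 5 microwave pairs its log2 ratios were 0.41, 0.064, 0.22, 0.0086 and 0.091 in the order of their numbers. It was the only member above 0 in 5 of 5 pairs, and pair 1 was the highest. The share of all genes above 0 in 5 of 5 pairs was not computed. Its mean was 0.16 ± 0.067 (SE, n = 5; limma unadjusted p = 0.0494, adjusted p = 0.872), and without pair 1 it was 0.095.

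The yolk proteins that this receptor binds also differed between the controls. All 5 measured vitellogenin genes of the list of 6 were 2-fold or more higher in heat control 2. Their median difference was 2.38 and the smallest, that of vit-6, was 1.84, below that of puf-5 alone among the members. No yolk gene passed the heat test; vit-1, with the lowest p, stood at 1.01 ± 0.76 (limma adjusted p = 0.343). The 14 genes of yolk uptake and endocytosis did not follow the receptor, with a median control difference of 0.038 and 0 genes at 1.5-fold. Of these, 6 fell in the arrays labelled heat shock and 8 did not pass, where 14.8% of all genes fell. Among those that fell were the small GTPase genes rab-10 at -1.95 ± 0.18 and rab-11.1 at -1.54 ± 0.12, both regulators of endosome recycling (limma adjusted p = 0.00366 and 0.00261).

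The genes oma-1 (C09G9.6) and oma-2 (ZC513.6) encode CCCH zinc finger proteins that act redundantly in the maturation of the oocyte. For oma-1 the log2 ratio was -0.48 in heat control 1, 0.36 in heat control 2, 0.22 in heat shock 1 and 0.25 in heat shock 2, so that the heat shock arrays lay near control 2. For oma-2, the mean of its 2 probe sets was -1.02 and 0.59 in heat controls 1 and 2, and -0.073 and -0.032 in heat shock 1 and 2. The 2 probe sets of oma-2 agreed on the order of the controls and disagreed on the heat shock arrays. The _at probe set stood at 0.16 and 0.30 in heat shock 1 and 2, and the _s_at probe set, a suffix that marks possible matches to more than 1 transcript, at -0.31 and -0.36. The only probe set of oma-1 is also an _s_at, so a contribution from related transcripts cannot be told apart from its own. The heat log2 fold change was 0.30 ± 0.29 for oma-1 (limma adjusted p = 0.455) and 0.17 ± 0.52 for oma-2 (adjusted p = 0.823; SE, n = 2 per group).

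In microwave pairs 1 to 5, oma-1 had log2 ratios of 0.84, 0.10, -0.048, -0.34 and 0.13, and oma-2 of 0.56, 0.018, 0.024, -0.24 and -0.082. Pair 1 was the highest and pair 4 the lowest for both genes. The means were 0.14 ± 0.15 and 0.058 ± 0.11 (SE, n = 5; limma adjusted p = 0.874 and 0.907). Without pair 1 they were -0.039 and -0.069, on the other side of 0.

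**Figure D2:**
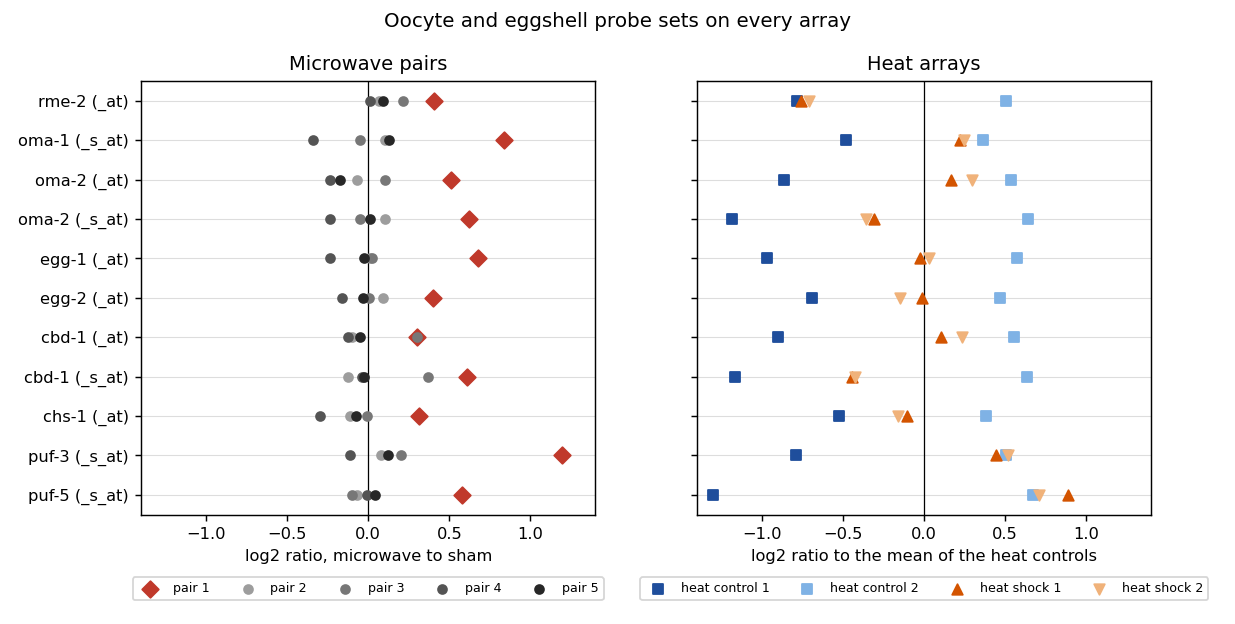
Log2 ratios of the 11 probe sets of the 9 genes (rows, with the suffix of the probe set) on each array: the 5 microwave to sham pairs at left and the 4 heat arrays, relative to the mean of the heat controls, at right. Pair 1 is at the right edge of the microwave points in 10 of 11 rows and level with pair 3 in the _at row of cbd-1, and heat control 1 lies lowest in every row.

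The egg receptor genes egg-1 (B0244.8) and egg-2 (R01H2.3) are paralogues whose products, membrane proteins with low density lipoprotein receptor repeats on the oocyte surface, are needed for fertilisation and for a normal eggshell. Each was read by 1 _at probe set of its own. For egg-1 the log2 ratio was -0.97 in heat control 1, 0.58 in heat control 2, -0.023 in heat shock 1 and 0.029 in heat shock 2. For egg-2 it was -0.69, 0.46, -0.013 and -0.15 on the same arrays. In both genes the heat shock arrays lay between the controls. The heat log2 fold changes were 0.20 ± 0.50 and 0.032 ± 0.38 (limma adjusted p = 0.775 and 0.957; SE over 2 arrays per group).

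The microwave log2 ratios of egg-1 were 0.68, 0.010, 0.024, -0.23 and -0.023 in pairs 1 to 5, and those of egg-2 were 0.40, 0.089, 0.0014, -0.16 and -0.031. As for the oma genes, pair 1 was highest and pair 4 lowest. The means were 0.091 ± 0.12 and 0.060 ± 0.081 (SE, n = 5; limma adjusted p = 0.881 for both), and without pair 1 they were -0.056 and -0.025.

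The genes cbd-1 (H02I12.1) and chs-1 (T25G3.2) act in the eggshell itself, as a chitin-binding protein of its outer layer and as the synthase that makes its chitin. For cbd-1, the mean of its 2 probe sets was -1.04 in heat control 1, 0.59 in heat control 2, -0.17 in heat shock 1 and -0.097 in heat shock 2. Its probe sets split as those of oma-2 did. The _at probe set stood at 0.10 and 0.23 in heat shock 1 and 2, and the _s_at probe set at -0.44 and -0.43, a difference of 0.55 and 0.66. Neither gave a call, at heat log2 fold changes of 0.34 ± 0.46 and -0.17 ± 0.57 (SE over 2 arrays a group; limma adjusted p over all probe sets = 0.594 and 0.837). For chs-1 the log2 ratio was -0.52, 0.38, -0.10 and -0.16 on the 4 arrays, again with both heat shock arrays between the controls. The heat log2 fold changes by gene were 0.087 ± 0.52 for cbd-1 and -0.062 ± 0.31 for chs-1 (limma adjusted p = 0.912 and 0.891).

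In the microwave pairs, cbd-1 was the member that least set pair 1 apart, at 0.45, -0.11, 0.34, -0.082 and -0.040 in pairs 1 to 5. The chs-1 values were 0.31, -0.11, -0.0072, -0.30 and -0.076, and chs-1 was the only member with a mean below 0. The means were 0.11 ± 0.096 for cbd-1 and -0.036 ± 0.084 for chs-1 (SE, n = 5; limma adjusted p = 0.872 and 0.927). Without pair 1 the means were 0.026 and -0.12.

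The genes puf-3 (Y45F10A.2) and puf-5 (F54C9.8) encode RNA-binding proteins of the Pumilio family that repress maternal mRNAs in oocytes. Both were read by 1 _s_at probe set, so a contribution from related transcripts cannot be told apart from their own. For puf-3 the log2 ratio was -0.79 in heat control 1, 0.51 in heat control 2, 0.44 in heat shock 1 and 0.52 in heat shock 2, with the heat shock arrays level with control 2. For puf-5 it was -1.304, 0.67, 0.89 and 0.71, and both heat shock arrays stood above both controls. These were the highest heat log2 fold changes of the 9 genes, at 0.62 ± 0.42 for puf-3 and 1.11 ± 0.63 for puf-5, and neither passed (limma adjusted p = 0.299 and 0.227; SE over 2 arrays per group).

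In microwave pairs 1 to 5, puf-3 had log2 ratios of 1.19, 0.081, 0.20, -0.11 and 0.12. Its ratio in pair 1, 2.29, was the highest of any member on any microwave array. For puf-5 the values were 0.58, -0.066, -0.10, -0.0072 and 0.044. The means were 0.30 ± 0.17 and 0.090 ± 0.10 (SE, n = 5; limma adjusted p = 0.872 and 0.875), and without pair 1 they were 0.073 and -0.033.

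Set against both controls, 0 of the 9 genes passed an adjusted p of 0.05 in the heat comparison, in either direction, and 0 had an unadjusted p under 0.05. Of all 17118 genes, 7729 had an unadjusted p under 0.05 (limma). Over all genes 15.2% were called higher on the heat shock arrays and 14.8% were called lower (limma, Benjamini-Hochberg over 17118 genes). The median log2 fold change of the members was 0.17, beside 0.13 over all genes. Their intervals were wide: standard errors ran from 0.29 to 0.63, where the median over all genes was 0.14, and the 95% intervals together reached from 3.17-fold lower to 6.61-fold higher. A missed threshold therefore does not show that these genes were unchanged. From lowest to highest the estimates ran rme-2, chs-1, egg-2, cbd-1, oma-2, egg-1, oma-1, puf-3 and puf-5. Every one of these intervals overlapped that of its neighbour and held 0.

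The direction of the heat difference depended on which control array was used. The mean of the heat shock arrays was above heat control 1 for 9 of 9 genes, with a median log2 difference of 0.90, and above heat control 2 for 1 of 9, puf-5, with a median of -0.54. Over all genes these medians were 0.14 and 0.11, and 62.1% and 60.3% of all genes lay above controls 1 and 2. With heat control 2 left out, 7 members passed as higher (13.6% of all genes) and 0 as lower (16% of all genes). These were oma-1, oma-2, egg-1, egg-2, cbd-1, puf-3 and puf-5. With heat control 1 left out, 4 passed as lower (14.9% of all genes) and 0 as higher (11.3% of all genes), namely rme-2, oma-2, egg-1 and cbd-1. Thus oma-2, egg-1 and cbd-1 were called in opposite directions. Their log2 fold changes were 0.97, 0.97 and 0.90 without control 2 (limma adjusted p = 0.00963, 0.00969 and 0.0122) and -0.64, -0.57 and -0.73 without control 1 (limma adjusted p = 0.0325, 0.0439 and 0.0242). Such fits take their spread from the heat shock arrays alone and assume that the lone control varies as little. The members' own control difference, with a median of 1.295, was far larger than their heat shock difference, with a median size of 0.057.

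**Figure D3:**
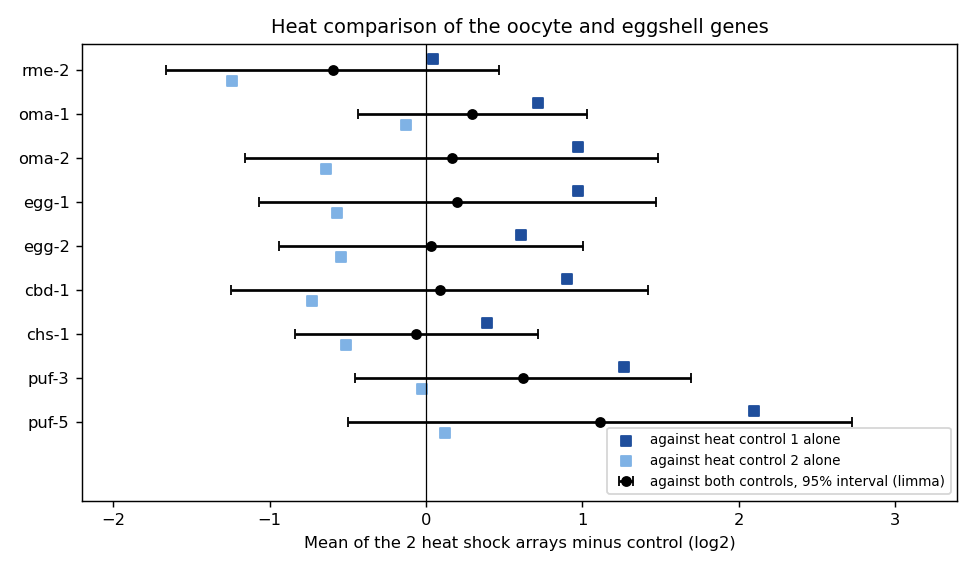
Log2 difference of the mean of the 2 heat shock arrays from both heat controls (black, with the 95% limma interval), from heat control 1 alone (dark blue) and from heat control 2 alone (light blue), for each gene. All 9 black intervals cross 0, the dark points are all above 0 and the light points are below 0 except for puf-5, at 0.12.

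In the microwave comparison 0 of the 9 genes passed, and 0% of all genes did (limma, Benjamini-Hochberg over 17118 genes). At an unadjusted p under 0.05 there was 1 member, rme-2, where 3.34% of all genes fell under it. Without pair 1, 2, 3 or 5, and with median centring, robust eBayes or array weights, 0 members did. With quantile normalisation 2 members did, beside 878 of all genes, and 1 did without pair 4, beside 1334. Without probe sets open to matches with several genes 1 did, beside 459. The median mean log2 ratio of the members was 0.091, beside -0.0026 over all genes. The 95% intervals of the 9 genes lay between 1.17-fold lower and 1.62-fold higher. The values came mostly from pair 1. There all 9 members were above 0, where 47.9% of all genes were. Their median log2 ratio was 0.56 against -0.012 over all genes. Of the members, 3 (oma-1, egg-1 and puf-3) had a ratio of 1.5 or more, where 7.58% of all genes did. In pairs 2 to 5 none of the members reached 1.5-fold in either direction on any array. Only 0.187% of all genes did, so this count does not set the members apart. The members' mean over these 4 pairs had a median of -0.033, with 3 of 9 above 0 (45.7% of all genes). Pair 1 also had the lowest 3' minus 5' value of the control transcripts, and the part of this in the members' ratios was not tested. In pair 4, 8 of 9 members were below 0 and 1 was above it, where 53.0% of all genes were above 0. The median there was -0.16 for the members and 0.0086 over all genes.

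Other genes of the oocyte pathway, from lists chosen with earlier results of these data known, differed between the controls in part. Of 13 eggshell and permeability barrier genes, 7 were 1.5-fold or more higher in control 2 and 1 was higher in control 1, with a list median of 0.79. Over all genes 3.05% were 1.5-fold or more higher in control 2. The 5th percentile of the difference was -0.58, near 1.5-fold higher in control 1. Largest in that list were cpg-2, cpg-3 and cpg-1, for chondroitin proteoglycans of the shell, at 2.17, 1.84 and 1.67. The oocyte form of glucosamine phosphate N-acetyltransferase, gna-2, which makes a precursor of chitin, stood at 1.33, and its paralogue gna-1 at -0.93. Of 18 measured egg activation and maturation genes of 21, 8 were 1.5-fold or more higher in control 2 (median 0.45). They included egg-3, for a partner of chitin synthase at the egg cortex, at 1.24. They also included the RNA-binding gene spn-4 at 1.65 and the B-type cyclin genes cyb-2.2, cyb-2.1 and cyb-3 at 1.73, 1.51 and 1.21. The kinase genes mbk-2, wee-1.3 and cdk-1, all with roles in the meiotic divisions or the egg to embryo transition, stood at 0.13, 0.14 and 0.37.

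Of 21 measured PUF and CCCH RNA-binding genes of 22, 9 were 1.5-fold or more higher in control 2 (median 0.51). These were puf-7, puf-11, mex-1, mex-3, mex-5, mex-6, pos-1, pie-1 and gld-1, of which pos-1, for a zinc finger protein of the early embryo, was largest at 2.12. The stem cell regulators fbf-1 and fbf-2, of the same Pumilio family, stood at -0.17 and -0.19. Of 16 oocyte and sheath signalling genes, 2 were 1.5-fold or more higher in control 2, the oocyte innexin genes inx-22 at 1.11 and inx-14 at 0.99 (median 0.097). The genes named for the controls in this and the preceding paragraph were picked after their values were seen. Differences between the controls have no test.

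In the heat test against both controls 15.2% of all genes rose and 14.8% fell, and no gene of these 4 lists rose. Of the eggshell list 0 rose, 2 fell and 11 did not pass. The fallers were egg-6, needed for the permeability barrier, at -0.72 ± 0.14 and perm-5 at -0.61 ± 0.14 (limma adjusted p = 0.0205 and 0.0319; SE over 2 arrays per group). Of the egg activation list 0 rose, 2 fell and 16 did not pass; cdk-1, the kinase that drives meiotic maturation, fell at -1.21 ± 0.17 and the ubiquitin ligase scaffold gene cul-2 at -0.51 ± 0.13. In the RNA-binding list 0 rose, 2 fell (car-1 at -0.99 ± 0.21 and puf-9 at -0.49 ± 0.11) and 19 did not pass, and in the signalling list 0 of 16 passed (lowest p in goa-1, for a G protein subunit, at -0.43 ± 0.12, limma adjusted p = 0.0542). The list medians of the heat log2 fold change were -0.21 for eggshell, -0.33 for egg activation, -0.11 for RNA-binding and -0.064 for signalling genes, beside 0.13 over all genes. In the microwave comparison 0 genes of any list passed. In pair 1 the medians of these 4 lists were 0.59, 0.75, 0.54 and 0.40.

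Markers of other cells of the worm had smaller median differences between the controls. The median control difference was 0.25 over 19 mitotic and meiotic germ line genes, with 2 at 1.5-fold or more (deps-1 and prg-1), and 0.17 over 25 sperm genes, with 2 (msp-63 and msp-142). It was 0.13 over 12 embryo genes, 0.13 over 11 intestine genes, 0.022 over 10 body wall muscle genes, -0.055 over 10 genes of the somatic gonad and vulva, and -0.079 over 13 neuron genes. Among these 5 lists, 1 gene was 1.5-fold or more higher in control 2, the intestinal metallothionein gene mtl-2 at 1.59, and 1 was higher in control 1, the intestinal phosphatase gene pho-1 at -0.60. Hypodermis and cuticle genes had a median of -0.41, and 3 of 12 were 1.5-fold or more higher in control 1: the collagen genes bli-1 at -1.57 and rol-6 at -1.03 and the hedgehog-related gene wrt-2 at -0.79. In that list 1 gene, grd-10, was higher in control 2, at 0.69. Over all genes the 5th percentile of the difference was -0.58, near 1.5-fold higher in control 1. All genes named here for the controls were picked after their values were seen. The part that these other cells had in the members' values was not tested. Sperm genes went the other way from the members in pair 1, with a median of -0.20 and 0 of 25 at a ratio of 1.5. The mitotic and meiotic germ line genes went with the members there, at a median of 0.54, with 7 of 19 at that ratio or more. Pair 1 medians were 0.30 for intestine, 0.14 for body wall muscle and 0.11 for neuron genes. They were 0.023 for the somatic gonad and vulva, -0.011 for the embryo and -0.074 for the hypodermis and cuticle. In the heat comparison 15.2% of all genes rose and 14.8% fell. Of the 25 sperm genes 15 rose and 1 fell, among them ssp-31 at 2.95 ± 0.18 and the paternal gene spe-11 at -1.20 ± 0.17 (limma adjusted p = 0.00232 and 0.00809). In the other cell type lists the genes that rose and fell were 1 and 6 of 19 in the mitotic and meiotic germ line, 5 and 0 of 12 in the embryo, and 3 and 0 of 10 in the somatic gonad and vulva. They were 1 and 7 of 11 in the intestine, 1 and 7 of 10 in body wall muscle, 1 and 5 of 12 in the hypodermis and cuticle, and 3 and 2 of 13 in neurons.

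**Figure D4:**
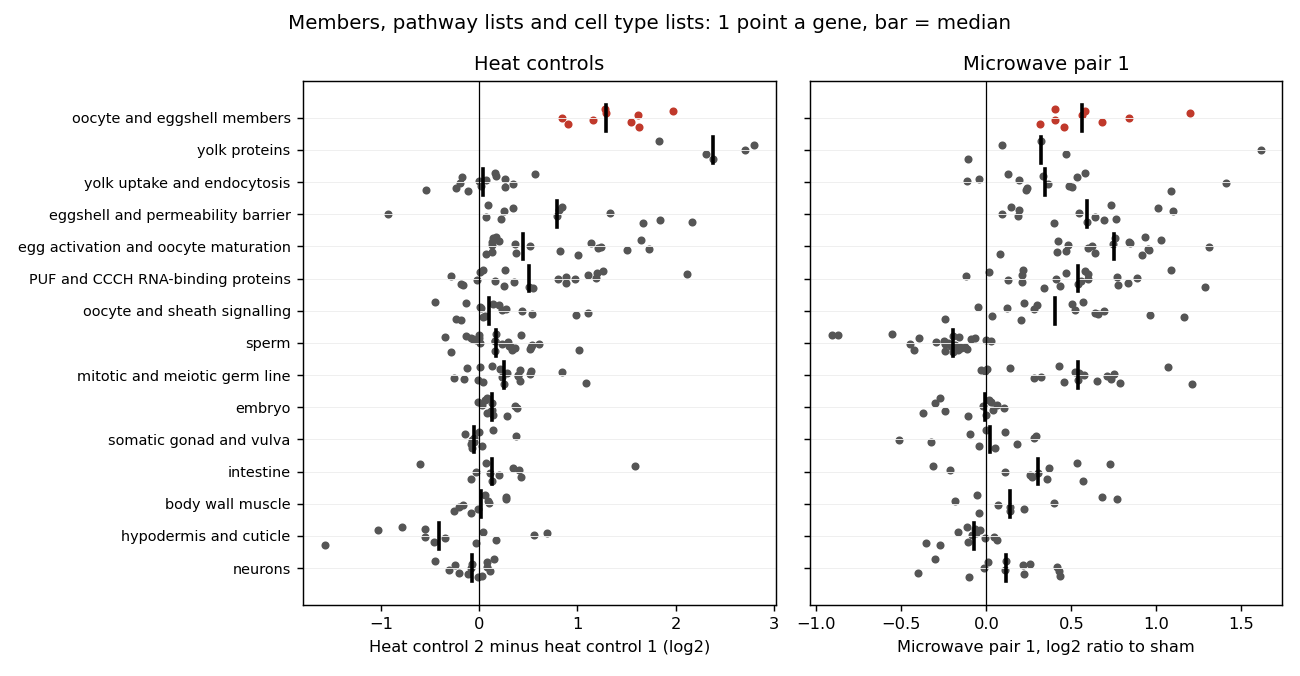
Each point is a gene of the members (red) or of a pathway or cell type list (grey), with the list median as a bar: the log2 difference of heat control 2 minus heat control 1 at left and the log2 ratio of microwave pair 1 at right. The members and the yolk proteins lie wholly to the right of 0.8 at left, and sperm genes lie below 0 at right with 1 exception.

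Across the 9 arrays with measured spread, the profile of a member correlated with the mean of the other 8 at Pearson's r from 0.60 (rme-2) and 0.75 (puf-5) to 0.993 (oma-2) and 0.998 (egg-1). These correlations are descriptions: the arrays of a comparison share a reference, and the heat controls and pair 1 weigh most. The 6 other genes whose profiles were most like the members' mean, of 13612 with an _at probe set, were grif-1, sop-3, cpg-3, cpg-1, wah-1 and inx-22, at r from 0.96 to 0.99. The closest, grif-1, stood at -0.85 and 0.53 in heat controls 1 and 2, at 0.15 and 0.14 in heat shock 1 and 2, and at 0.58 in microwave pair 1. Among these 6 were the eggshell proteoglycan genes cpg-1 and cpg-3 and the oocyte innexin gene inx-22.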

How the data were processed

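The authors deposited linear ratios per probe set. Per the labels' protocols, GCOS read the arrays and the MAS 5 algorithm normalised them; the submitters' processing notes name RMA. Which of them made the ratios, and the genome build, is not given in the sources used here. Of 22625 probe sets, 77 controls were removed and 22548 kept; 20766 name 1 gene in the platform annotation, 887 several, and 895 are not listed. Symbols were updated through the RefSeq gene table of WBcel235. The value of a gene is the mean log2 ratio of its single-gene probe sets.

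R 4.3.3 and limma 3.58.1 (lmFit, eBayes) were fitted across all 17118 genes: the 5 microwave log2 ratios against 0, with sham and microwave plates filled from the same cultures, and 2 heat shock against 2 heat control arrays without a block. Tests were two-sided, with Benjamini-Hochberg adjustment at 0.05. The fits were tested on simulated data. The members and lists were chosen with earlier results of these data known. Named genes are the members, up to 2 per direction from each pathway list and 1 from each cell type list by heat fold change among those called (else the lowest p), the 6 most alike, and those said to be chosen after their values were seen. List genes not measured include vit-3, egg-4, egg-5, ooc-5 and puf-6. Alternatives were other scalings, probe sets, variance models, weights, a replicate block and leaving out each array. Precision is limited by the number of arrays; no scan date was found in the files.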

Additional observations from a re-analysis of the deposited data

Results flagged for a closer look

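In the microwave pairs 3 of the 9 genes had 1 array far from the other 4, by the ratio of its gap to the whole range (Dixon's criterion for 5 values). For egg-1, pair 1 stood at 0.68 and the next pair at 0.024. For puf-3, pair 1 stood at 1.19 and the next at 0.20. For puf-5, pair 1 stood at 0.58 and the next at 0.044. Chance flags about 1 in 20 groups where all arrays vary alike, and 9 genes that share their arrays were looked at. All 3 flags fell on pair 1, where the standard deviation over all probe sets was 0.387. In pairs 2 to 5 it was 0.101 to 0.164. The share of all genes flagged was not computed, so the 3 flags cannot be read as a trait of these genes.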

How the results depend on the processing

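In the microwave comparison 0 genes and 0 members passed by limma under every alternative run. Signs near 0 turned: with array weights oma-2 stood at -0.023, egg-1 at -0.0060 and puf-5 at -0.011, and with quantile normalisation oma-2 stood at -0.0088. With array weights rme-2 stood at 0.0999, with an unadjusted p no longer under 0.05. Leaving out 1 pair gave 0.095 to 0.19 for rme-2, 0.026 to 0.17 for cbd-1, 0.073 to 0.40 for puf-3, -0.039 to 0.26 for oma-1, -0.069 to 0.13 for oma-2, -0.056 to 0.17 for egg-1, -0.025 to 0.12 for egg-2, -0.12 to 0.030 for chs-1 and -0.033 to 0.14 for puf-5. In the heat comparison the 5129 called genes (2600 higher, 2529 lower) became 0 with quantile normalisation, which gives arrays of unequal spread the same distribution (1505 at an unadjusted p under 0.05), with 0 higher and 0 lower. With median centring 1695 were higher and 2901 lower, and without probe sets open to matches with several genes 1600 were lower. Leaving out 1 array gave 0 to 5069 genes, 0 to 2326 higher and 0 to 2743 lower; the 0 came without heat shock 1 and 784 without heat shock 2. Members called then ranged from 0 to 7. Without 1 array rme-2 ranged from -1.24 to 0.045, oma-1 from -0.13 to 0.72, oma-2 from -0.64 to 0.97, egg-1 from -0.57 to 0.97, egg-2 from -0.54 to 0.61, cbd-1 from -0.73 to 0.90, chs-1 from -0.51 to 0.39, puf-3 from -0.028 to 1.27 and puf-5 from 0.12 to 2.1004. Median centring turned egg-2 to -0.070 and cbd-1 to -0.015, and quantile normalisation turned chs-1 to 0.097. Read against the arithmetic mean of the controls, an alternative chosen after seeing the data, oma-2 stood at -0.052, egg-2 at -0.080 and cbd-1 at -0.13. The difference between the controls stayed at 1.5-fold or more in 9 of 9 members with median centring. It did so in 6 of 6 without probe sets open to matches with several genes, where oma-1, puf-3 and puf-5 have no value. With quantile normalisation 9 of 9 were at 1.5-fold or more, but that setting stretches the controls and so cannot check this. The median control difference of the members moved from 1.295 to 2.99 with quantile normalisation, and the median of their pair 1 ratios from 0.56 to 0.25. The 3 members at a ratio of 1.5 in pair 1 became 0 with quantile normalisation and 1 without those probe sets. The cause of these changes was not tested unless stated.

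The heat arrays share replicate numbers that nothing in the labels ties to a culture, and deviations of same-numbered arrays correlated at -0.063 over genes. With the replicate block 3299 genes passed, 1383 of them higher, and 0 members.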
